A study of Mus musculus with 2 samples.

Results

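Smooth muscle squares are the small tissue areas of a spatially resolved intestinal section in which transcripts of smooth muscle took the largest share of all counts. They were taken from the section of a mouse labelled Dpf2 knockout (KO). Its counts were summed over squares with a side of 10 position units, and squares with 1000 or more counts were kept. The score of a square was the share of its counts held by 7 genes of smooth muscle, Acta2, Tagln, Myh11, Des, Actg2, Tpm2 and Cnn1. The 5% of squares with the highest score were the members, 415 of the 8285 squares kept in this section and of 13202 kept in the whole series. They are called muscle squares below, and the other 7870 squares of the section are the remaining squares. The series holds 1 section labelled KO and 1 labelled wild type (WT), both of intestine from mice given 10 Gy of X-rays, so every group in it was irradiated. Dpf2 encodes a subunit of the BAF chromatin remodelling complex. The sources used here do not give the deleted stretch of Dpf2 or where in the body it was deleted. The same goes for the age of the mice, the segment of gut, the time since irradiation and the unit of the positions. With 1 section per genotype there are no replicates, squares of a section are not replicates either, and no test was made. Ratios carry 95% intervals of counting error only, and the spread within the section is shown over 4 parts of it, formed by position alone with equal numbers of squares.

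The muscle of the gut wall lies outside the mucosa in an inner circular and an outer longitudinal layer, with the nerve cells of the myenteric plexus and interstitial pacemaker cells between them and the mesothelium over them, while a thin muscularis mucosae lies under the crypts. Contraction starts when a rise in calcium activates myosin light chain kinase, and ends when myosin phosphatase removes the phosphate. Much of the contractile gene set is switched on by serum response factor with its partner myocardin, through a DNA element named the CArG box.

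The KO-labelled section held 88056 barcodes under tissue with 89754886 counts, and the WT-labelled section 50970 barcodes with 39824941 counts. The barcode names of the sections overlap in 45557 cases, taken here as array positions and not as shared cells. Genes of chromosomes X and Y were at 0 counts in both sections, so genes such as Dmd, Bgn and Fhl1 have no value. Dpf2 itself (chr19:5896516-5912871) was not lower in the KO-labelled section, with 31.4 CPM (counts per 1000000 counts) in its muscle squares and 20.8 CPM in the muscle squares of the WT-labelled section. Transcript outside the deleted part checks nothing about a deletion, so the sections are called by their labels throughout.

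Promoters of muscle genes that hold a CArG box are shown first, since it is the element through which serum response factor acts. RefSeq windows on GRCm38.p6 reach from 250 bases before to 50 bases after the start of a gene. Of the 209 genes in 11 muscle lists, 150 had a window. In 9 of these genes (6%) at least 1 window held a CArG box in exact consensus on either strand. The same held for 162 of the 9757 tested genes with a window (1.66%). Counted by single window, it was 535 of all 32851 (1.63%). The 4 below are those with the highest ratios of muscle over remaining squares among those with 100 or more counts, a choice made after the values were seen, and capitals mark the CArG box. Fermt2, for the integrin activator kindlin-2, is on the minus strand at chr14:45530016-45530315. Myl9, for the regulatory light chain of smooth muscle myosin, is on the plus strand at chr2:156775214-156775513. Cnn2, for calponin 2, is on the plus strand at chr10:79988350-79988649, and Vcl, for the adhesion protein vinculin, is on the plus strand at chr14:20929148-20929447.
Fermt2: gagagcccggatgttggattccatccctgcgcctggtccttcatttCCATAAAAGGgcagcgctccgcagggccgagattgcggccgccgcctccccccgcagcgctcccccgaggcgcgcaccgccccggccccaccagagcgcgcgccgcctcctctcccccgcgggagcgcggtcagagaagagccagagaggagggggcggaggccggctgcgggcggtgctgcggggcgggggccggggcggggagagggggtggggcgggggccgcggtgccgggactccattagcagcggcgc
Myl9: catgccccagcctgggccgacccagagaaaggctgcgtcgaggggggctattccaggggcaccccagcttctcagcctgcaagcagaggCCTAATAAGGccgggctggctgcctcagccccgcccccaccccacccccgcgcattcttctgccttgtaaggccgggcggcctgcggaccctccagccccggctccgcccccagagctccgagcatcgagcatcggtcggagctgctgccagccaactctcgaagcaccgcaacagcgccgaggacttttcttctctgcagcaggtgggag
Cnn2: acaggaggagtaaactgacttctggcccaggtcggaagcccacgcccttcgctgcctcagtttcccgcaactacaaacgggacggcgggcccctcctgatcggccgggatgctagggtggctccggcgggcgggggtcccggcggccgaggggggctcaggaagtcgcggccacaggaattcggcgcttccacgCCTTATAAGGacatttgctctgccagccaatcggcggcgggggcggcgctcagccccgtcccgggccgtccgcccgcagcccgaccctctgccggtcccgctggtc
Vcl: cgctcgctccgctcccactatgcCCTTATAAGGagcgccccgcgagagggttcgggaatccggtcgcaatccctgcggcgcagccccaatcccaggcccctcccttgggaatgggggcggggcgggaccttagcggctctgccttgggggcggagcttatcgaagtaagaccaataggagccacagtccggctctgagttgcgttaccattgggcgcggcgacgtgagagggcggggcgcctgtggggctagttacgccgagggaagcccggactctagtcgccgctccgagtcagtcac
The box begins 204, 161, 56 and 227 bases before the start of Fermt2, Myl9, Cnn2 and Vcl, in this order. The other 5 muscle genes with a match were Trpc6, Fbxl22, Myl6, Srf and Ldb3. Of the 7 scoring genes, the windows of Acta2, Des, Tpm2 and Cnn1 held no exact match, and Tagln, Myh11 and Actg2 were not matched to a window. Among genes at least 2-fold higher in the muscle squares, 35 of the 1155 genes with a window (3.03%) held the box. Among those less than 2-fold apart it was 124 of 8382 genes (1.48%). A match describes letters in the window and is not evidence of binding.

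The score chose the members, so the 7 scoring genes describe the selection and support nothing. The lowest member scored 0.597% and the highest 1.93%, with a median of 0.779% in the muscle squares and of 0.0618% in the remaining squares. Around the cut the scores ran without a step, since the 10th member inside it scored 0.605% and the 10th square outside it 0.591%. The members held 5.68% of the section's counts and 31.6% of the counts of the scoring genes, so most of these counts lay outside the muscle squares. Acta2, smooth muscle alpha actin (chr19:34240336-34255585), had 1860.0, 2455, 2176 and 2556 CPM in the muscle squares of the 4 parts, against 305, 388, 289.6 and 302 CPM in their remaining squares. Actg2, the enteric gamma actin (chr6:83512909-83536251), had 1036, 1124, 1163 and 1118 CPM, against 121, 148, 116 and 115 CPM. Myh11, the heavy chain of smooth muscle myosin (chr16:14194527-14292188), had 896, 1129, 1125 and 1042 CPM, against 131, 158, 129.9 and 114 CPM. In all 3 the lowest muscle value lay far above the highest remaining value. The log2 ratios of the 7 genes ran from 2.71 for Cnn1, calponin 1, to 3.19 for Actg2. When each gene was measured in squares chosen by the other 6, its ratio stood at 3.14 for Actg2, 2.98 for Myh11, 2.99 for Des (desmin), 2.84 for Tpm2 (tropomyosin 2), 2.81 for Acta2, 2.77 for Tagln (transgelin) and 2.66 for Cnn1.

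**Figure D1:**
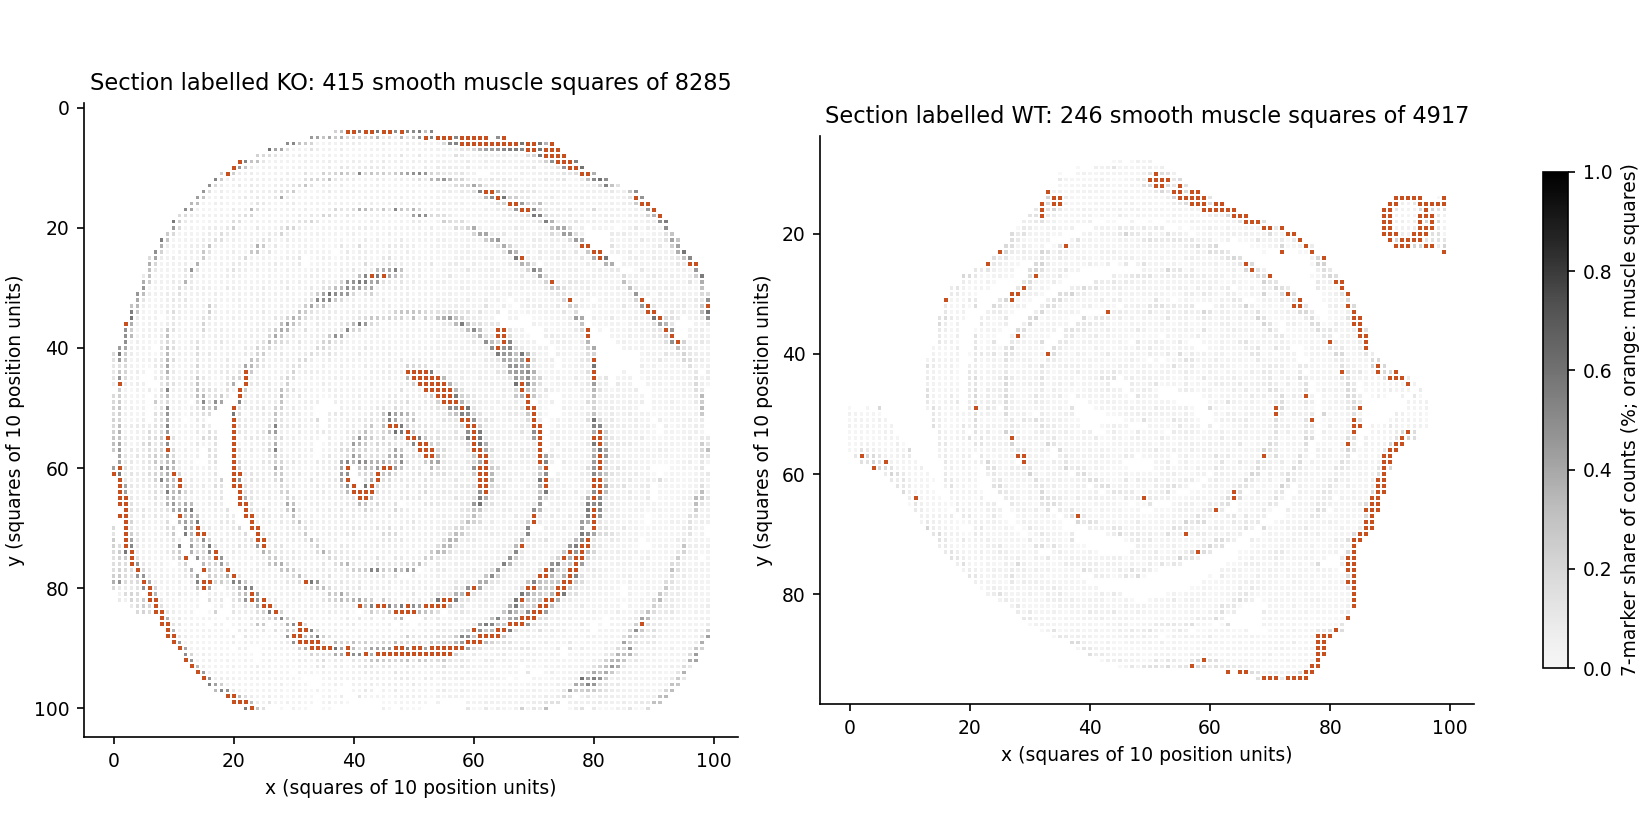
Position of the muscle squares (orange) among the remaining squares (grey) in the section labelled KO (left) and the section labelled WT (right), drawn to scale in position units, each point being 1 square of 10 units. In the KO-labelled section the 415 muscle squares lie in all 4 parts of the section, though 1 part holds only 24 of them. Many of the 246 of the WT-labelled section lie along its outer edge and 47 lie in a separate piece of tissue.

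Most muscle squares lay beside others rather than as scattered points. The 415 fell into 77 groups of touching squares, the largest of 62, with 25 squares alone. Groups of 5 or more held 307 of the 415 (74.0%). The 4 parts held 24, 152, 129 and 110 of the muscle squares among about equal numbers of squares, so the part that holds 24 is the least precise in all values below. The pooled scores of the parts were 0.740%, 0.855%, 0.817% and 0.884%. A muscle square held a median of 12275 counts from 11 barcodes and a remaining square 10094.5 counts, so the muscle squares were not the shallow ones. The muscle squares also held counts of genes of other cell types, described below, and the number of cells in a square is not known. In such summed counts, fewer cells of a type and less RNA per cell cannot be told apart.

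The genes that mark smooth muscle but took no part in the score followed it. Those of striated muscle had low levels, though several of them were higher in the muscle squares too. Myl9 had 1699, 1911, 1930.3 and 2054 CPM in the muscle squares of the 4 parts, against 284, 336, 275 and 269 CPM in the remaining squares, a log2 ratio of 2.75 (2.72 to 2.78). Smoothelin (Smtn), a cytoskeletal protein of contractile smooth muscle, had 263, 327, 306 and 354 CPM, against 49.2, 51.4, 45.6 and 41.8 CPM, a log2 ratio of 2.80 (2.72 to 2.88). Both genes separated muscle from remaining squares in every part. Of the fast and perinatal skeletal myosins, Myh1, Myh2, Myh4 and Myh8 were at 0 counts in the muscle squares, where 0 counts allow up to 0.589 CPM. Of the skeletal muscle genes 4 of 9 measured were at least 2-fold higher and of the cardiac genes 4 of 5 (medians 0.40 and 1.59). Among all genes with the lists' minimum of 50 counts, 2542 of 16566 were at least 2-fold higher. The summed level of the 20 skeletal muscle genes was 121 CPM in the muscle squares and 56.0 CPM in the remaining squares, of which Ckm, muscle creatine kinase, held 78.5 CPM in the muscle squares. Acta1, skeletal actin, had 17.1 CPM in the muscle squares and 27.1 CPM in the remaining squares, and reads of actin genes can be exchanged among these near-identical copies. Tnnt2, the cardiac troponin T that some smooth muscle also expresses, had 17, 35.6, 35.2 and 43.0 CPM, against 5.43, 6.87, 5.11 and 6.57 CPM.

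Across the whole table, 13152 genes had 200 or more counts in the section. Of these, 1570 (11.9%) were at least 2-fold higher in the muscle squares and 301 (2.29%) at least 2-fold lower, with a median log2 ratio of 0.18 over all of them. With scaling by the median of ratios in place of the total, the counts became 1239 higher and 570 lower. In 1351 of the higher and 273 of the lower genes, the sign was the same in all 4 parts. At least 4-fold higher were 393 genes and at least 4-fold lower 8, and 13 genes were at least 8-fold higher. The score fixed this contrast, so nothing is read from these shares. The gene lists below use members with 50 or more counts. At that minimum 2542 of 16566 genes were at least 2-fold higher and 584 at least 2-fold lower, and the list counts are described against these. The share of enterocyte genes moved with the same contrast, at 1.99% of counts in the muscle squares and 4.24% in the remaining squares. When the remaining squares were limited to those at or below their median enterocyte share, 825 genes were at least 2-fold higher and 118 at least 2-fold lower.

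**Figure D2:**
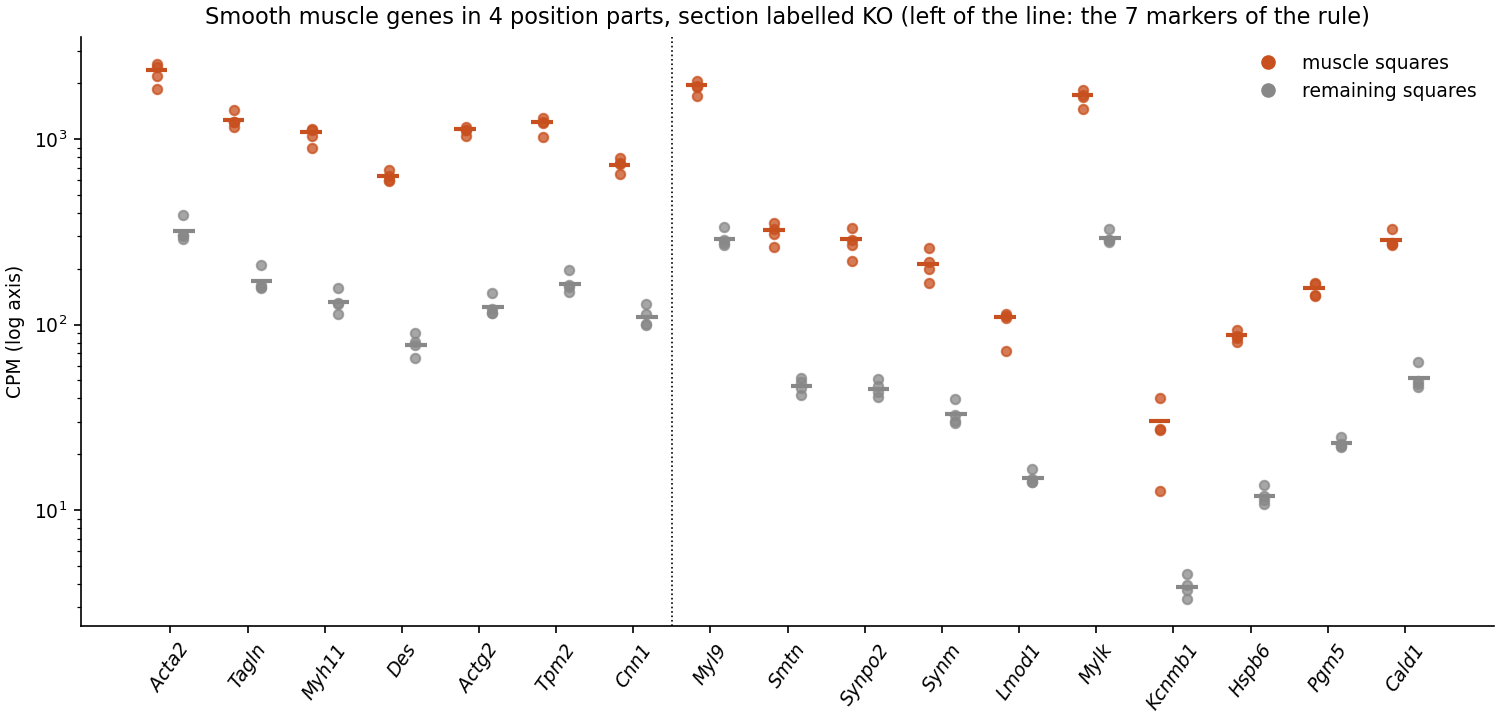
Level of 17 genes in CPM (log axis) in the muscle squares (orange) and the remaining squares (grey) of the section labelled KO, with a point for each of the 4 parts of the section and a bar for the pooled value. The first 7 genes made the score, and in the other 10, among them Myl9, Smtn and Mylk, every orange point also lies above every grey point.

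Of the contractile apparatus and its regulators, 14 of 24 measured genes were at least 2-fold higher and 0 at least 2-fold lower, with a median log2 ratio of 1.21 (quartiles 0.04 to 2.49). Lmod1, leiomodin 1, which nucleates actin filaments, had 72.2, 114, 112 and 109 CPM in the 4 parts of the muscle, against 14.3, 16.6, 14.7 and 14.1 CPM in the remaining squares, a log2 ratio of 2.89 (2.74 to 3.03). Mylk, the light chain kinase that starts contraction, had 1461, 1689.7, 1736 and 1836 CPM, against 287, 329, 285 and 277 CPM, a log2 ratio of 2.56. The sets did not overlap in any part for either gene. The phosphatase side was higher too. Its targeting subunit Ppp1r12b had 539 against 93.1 CPM (2.53), its inhibitor Ppp1r14a, also named CPI-17, 110.3 against 18.1 CPM (2.6), and its general targeting subunit Ppp1r12a 295 against 96.3 CPM (1.61). Caldesmon (Cald1), which restrains actin and myosin at rest, stood at 2.48 and tropomyosin 1 (Tpm1) at 2.10. The essential light chain Myl6 was abundant everywhere, at 4194 CPM in the muscle squares and 1849 CPM in the remaining squares, a log2 ratio of 1.18. By contrast the small GTPase Rhoa stood at 0.07, the kinases Rock1 and Rock2 at −0.01 and −0.19, the non-muscle myosin Myh9 at 0.05 and the non-muscle light chain Myl12b at −0.29.

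Thin filament anchors were mostly higher in the muscle squares. In the list of thin filament, dense body and focal adhesion genes, 21 of 29 were at least 2-fold higher and 0 at least 2-fold lower (median 1.58, quartiles 0.97 to 2.30). The highest were Fermt2 at 2.83 (2.64 to 3.03), Pgm5 (aciculin, a dystrophin partner) at 2.78, the LIM protein Csrp1 at 2.72, the actin regulator Cap2 at 2.68, and the Z-line and dense body proteins Pdlim3 and Synpo2 at 2.68 each. Synpo2, synaptopodin 2, had 221, 285, 268 and 331 CPM in the muscle squares of the parts, against 46.8, 50.9, 40.5 and 43.2 CPM. Filamin C (Flnc), the muscle filamin, had 84.2 against 17.1 CPM, a log2 ratio of 2.30. Alpha-actinin 1 (Actn1) stood at 1.77 and alpha-actinin 4 (Actn4) at −0.39. Vinculin (Vcl) stood at 1.46, talin 1 (Tln1) at 1.16, integrin-linked kinase (Ilk) at 1.93 and paxillin (Pxn) at −0.23.

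Intermediate filaments and small heat shock proteins had the highest median of the functional lists apart from the scoring genes, 2.23 (quartiles 1.29 to 2.73), with 9 of 12 at least 2-fold higher and 0 lower. Synemin (Synm), which links desmin filaments to membrane complexes, had 199.6, 218, 168 and 260.4 CPM in the muscle squares of the parts, against 32.7, 39.5, 29.4 and 30.1 CPM, a log2 ratio of 2.70 (2.6 to 2.80). The small heat shock proteins Hspb1, Hspb6, Hspb7 and Hspb8 stood at 3.0, 2.89, 2.81 and 2.42, and alpha B crystallin (Cryab) at 2.21. Hspb1 had 51.0, 64.5, 71.1 and 61.4 CPM in the muscle squares, against 6.55, 10.8, 8.62 and 7.05 CPM in the remaining squares. Their co-chaperone Bag3 stood at 0.44, and plectin (Plec), a linker of filaments in many cell types, at −0.25.

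At the cell membrane, all 8 measured caveolar genes were at least 2-fold higher (median 1.87). Cav1, the coat protein caveolin 1, had 84.9 to 166 CPM over the parts of the muscle and 21.9 to 50.8 CPM over those of the remaining squares, a log2 ratio of 2.28. Cav3, the caveolin of muscle, stood at 2.31 on 43 counts in the muscle squares, and the coat proteins Cavin1 and Cavin2 at 1.67 and 1.91. In the dystrophin complex and sarcolemma list, 7 of 14 were higher by 2-fold and 0 lower (median 1.16). Its highest members were the cyclic AMP-binding popeye proteins Bves at 3.06 (29.4 against 3.52 CPM) and Popdc2 at 2.83, then epsilon and beta sarcoglycan (Sgce and Sgcb) at 2.33 and 2.13. Dystroglycan (Dag1) and utrophin (Utrn), which epithelium also expresses, stood at 0.11 and 0.57. Of the integrins of muscle, 4 of 8 were at least 2-fold higher. They were the collagen receptor subunit Itga1 at 2.09, the fibronectin receptor subunit Itga5 at 2.0, the laminin receptor subunit Itga7 at 1.5 and their partner Itgb1 at 1.43 (481 against 179 CPM).

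Genes of calcium entry, storage and removal were mostly higher in the muscle squares. In that list 12 of 20 were at least 2-fold higher and 0 lower (median 1.35, quartiles 0.38 to 2.58). The pore of the L-type calcium channel, Cacna1c, had 38.2, 52.6, 47.2 and 61.4 CPM in the muscle squares of the parts, against 7.91, 10.0, 7.69 and 7.17 CPM, a log2 ratio of 2.69 (2.48 to 2.90). Its relative Cacna1d stood at −0.22. Atp2b4, a plasma membrane calcium pump, stood at 2.65 (225 against 35.9 CPM), the sodium-calcium exchanger Slc8a1 at 2.59, the storage protein Casq2 (calsequestrin 2) at 2.82 and the junction protein Jph2 at 2.59. Phospholamban (Pln), the brake on the sarcoplasmic pump, had 8.49, 30.5, 26.3 and 40.9 CPM, against 5.19, 5.39, 4.54 and 5.48 CPM, and its lowest value was in the part that holds 24 muscle squares. The pump itself, Atp2a2, stood at 1.25. The store release channel Itpr1 stood at 1.45, against −0.95 for Itpr2, 0.44 for Ryr3 and 0.22 for Ryr2.

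Channels of the muscle membrane were also high. Of the channel genes, 12 of 17 were at least 2-fold higher and 0 lower (median 1.78). Kcnj8 and Abcc9 form the ATP-sensitive potassium channel of smooth muscle and pericytes, and stood at 2.98 (41.0 against 5.20 CPM) and 2.80 (172 against 24.6 CPM). Kcnmb1, the smooth muscle subunit of the large-conductance calcium-activated potassium channel, had 12.7, 27.1, 27.5 and 40.2 CPM in the muscle squares of the parts, against 3.93, 4.53, 3.72 and 3.32 CPM, a log2 ratio of 2.98 (2.69 to 3.26). The pore of this channel, Kcnma1, stood at 2.0. The receptor-operated cation channel Trpc6 stood at 1.57. Trpm4, a cation channel with wide expression, stood at 0.10 and Ano1, the chloride channel of pacemaker cells, at 2.56.

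Receptors differed among themselves. Of those measured, 10 of 20 were at least 2-fold higher and 1 lower, with a median of 1.0 (quartiles 0.42 to 2.03). Htr2b, the serotonin receptor 2B (chr1:86097546-86116231), had the highest ratio of the genes with 200 or more counts that were named by rule, 3.44 (3.08 to 3.78). It had 21.2, 19.8, 19.7 and 28.9 CPM in the muscle squares of the 4 parts, against 1.75, 2.39, 1.96 and 2.16 CPM in the remaining squares, so no part overlapped. Chrm2, the muscarinic receptor M2 that answers acetylcholine from enteric nerves, had 42.5, 76.9, 60.9 and 91.0 CPM, against 8.01, 9.06, 8.0 and 7.81 CPM, a log2 ratio of 3.18. Chrm3, the muscarinic receptor that couples to calcium release, had 8.24 against 4.09 CPM, a log2 ratio of 1.01 (0.51 to 1.48). The neurokinin receptor Tacr2 and the prostaglandin F receptor Ptgfr stood at 2.97 (2.05 to 3.84) and 2.96 (2.18 to 3.70) on 17 and 23 counts in the muscle squares. Galr2, a galanin receptor, had 29.2 against 3.17 CPM, with 8.49 to 37.9 CPM over the parts of the muscle. The VIP receptor Vipr2 stood at 2.03, whereas Vipr1, the VIP receptor of epithelium, stood at −0.80 (109 against 189.7 CPM), and Hrh1, a histamine receptor, had 1 count in the muscle squares.

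Relaxation through nitric oxide and cyclic nucleotides was represented by the receptor cyclase and its targets. In that list 7 of 15 were at least 2-fold higher and 0 lower (median 0.96). The subunits of the nitric oxide receptor guanylate cyclase, Gucy1b1 and Gucy1a1, stood at 2.64 (51.8 against 8.30 CPM) and 2.02 (27.7 against 6.81 CPM). Mrvi1, the substrate through which cyclic GMP kinase restrains calcium release, stood at 2.40 and the adenylate cyclase Adcy5 at 2.63. The kinase gene Prkg1 stood at 0.63 and the phosphodiesterase Pde5a at 0.75, both under 2-fold.

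Among the transcription factors of muscle, 19 of 31 were at least 2-fold higher and 1 lower (median 1.20, quartiles 0.52 to 1.78). The highest were factors of gut mesenchyme, namely Hand1 at 2.83, Hand2 at 2.61, Meis2 at 2.38, Meis1 at 2.33 and Foxf1 at 2.30. Foxf1, a target of hedgehog signals from the epithelium, had 25.5, 60.5, 66.9 and 64.2 CPM in the muscle squares of the parts, against 11.3, 14.2, 12.1 and 12.9 CPM. Myocd, the myocardin that drives contractile genes with serum response factor, was a low transcript, with 7.65 CPM in the muscle squares and 1.57 CPM in the remaining squares, a log2 ratio of 2.28 (1.73 to 2.81). Its partner Srf stood at 0.77 (27.3 against 16.0 CPM) and the related coactivators Mkl1 and Mkl2 at 0.44 and 0.18. Klf4, a factor of differentiated epithelium that represses myocardin in vascular muscle, was the gene at least 2-fold lower, at 70.5 against 171 CPM (−1.28). The intestinal epithelial factors Gata4 and Gata6 stood at −0.51 and −0.43.

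Energy genes had list medians near 0. Of the creatine kinase, glycolysis and glycogen genes, 8 of 24 were at least 2-fold higher and 0 lower (median 0.17), among them isoforms of muscle. The higher ones included the lactate dehydrogenase Ldhb at 2.76 (76.3 against 11.3 CPM), Ckm at 2.59, the insulin-responsive glucose transporter Slc2a4 at 2.40, muscle glycogen phosphorylase Pygm at 2.10 and muscle phosphofructokinase Pfkm at 1.54. Their counterparts Ldha, Ckb and Pfkl stood at −0.34, 0.27 and 0.31. None of the 25 nuclear genes of oxidative phosphorylation was 2-fold apart (median 0.00), nor were the 22 ribosomal protein genes (median 0.39).

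**Figure D3:**
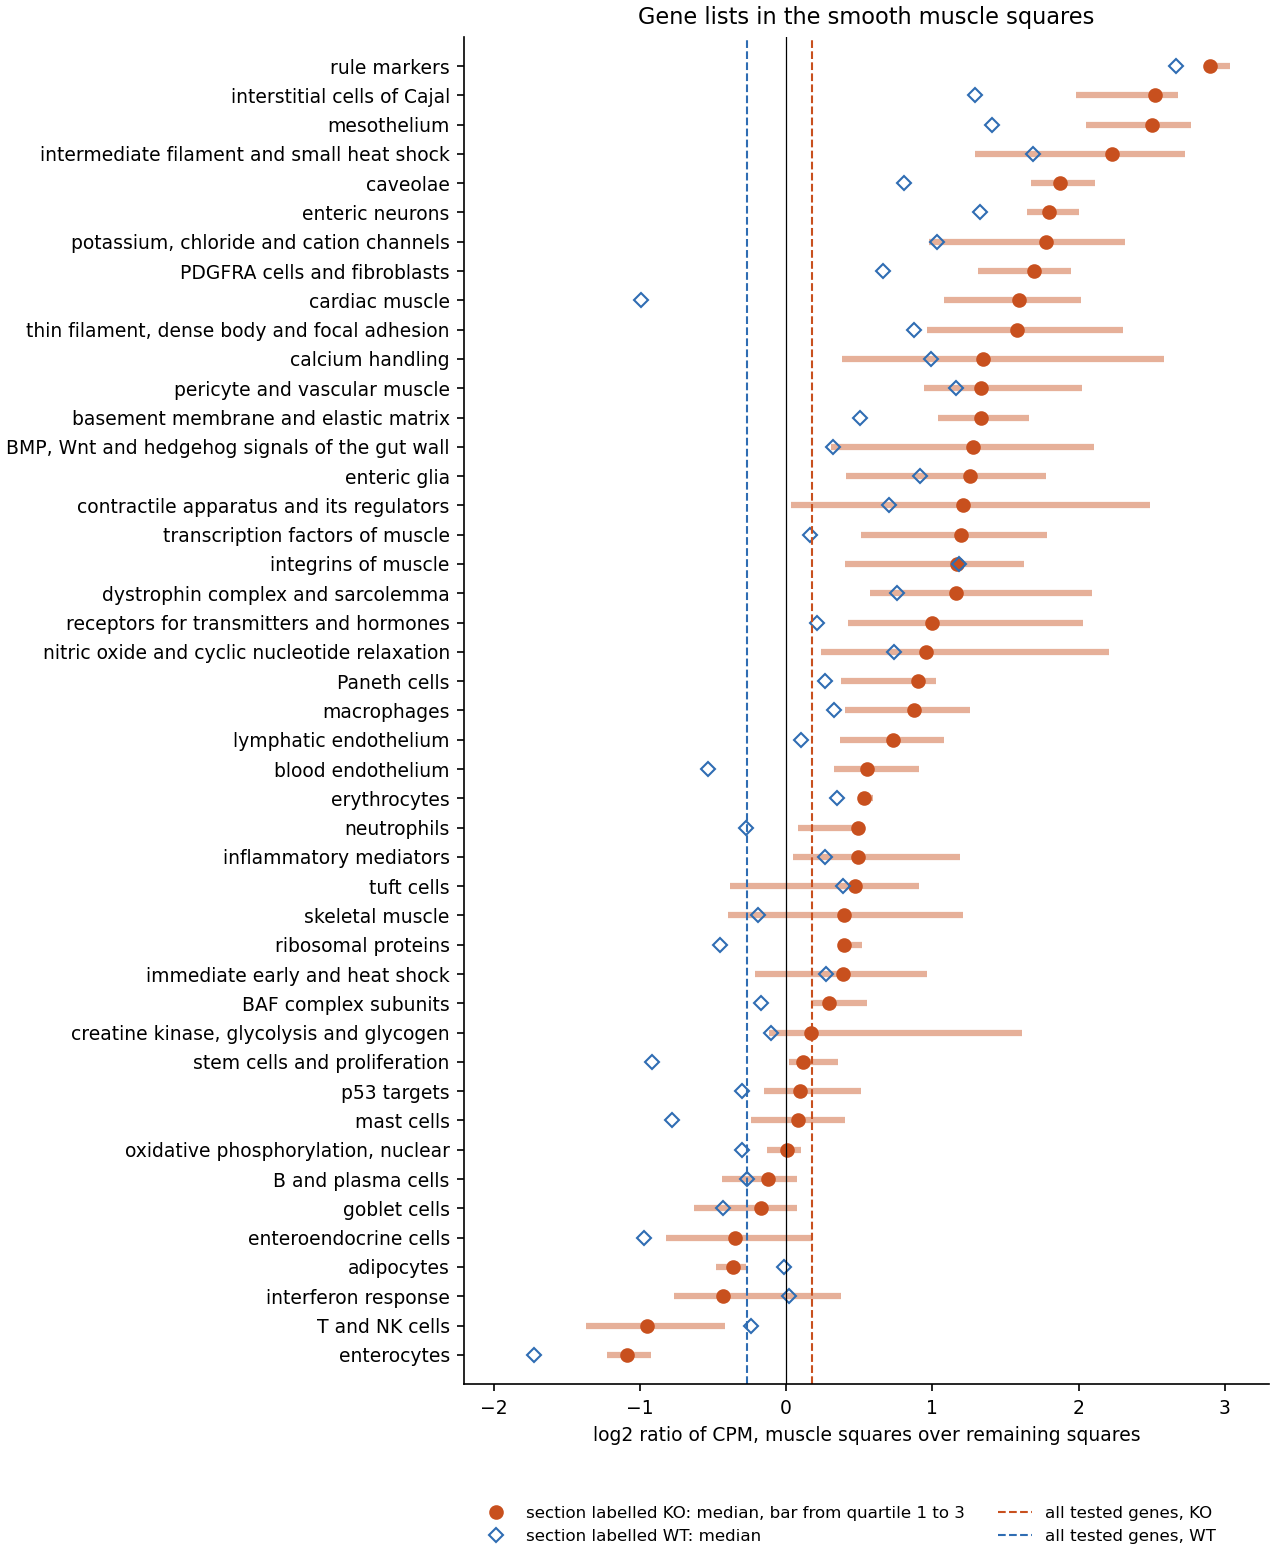
Median log2 ratio of muscle over remaining squares for 45 gene lists, as points with quartile bars for the section labelled KO and diamonds for the section labelled WT. Dashed lines are the medians of all tested genes, 0.18 and −0.27. The intermediate filament list lies at 2.23, the pacemaker cell list at 2.52 and the enterocyte list at −1.09 in the KO-labelled section.

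Genes of the matrix and of BMP, Wnt and hedgehog signalling were mostly higher in the same squares. Of the basement membrane and elastic matrix genes, 23 of 30 were at least 2-fold higher and 0 lower (median 1.33), and their sum was 2511 CPM in the muscle squares and 1055 CPM in the remaining squares. Sparcl1, a matrix-associated glycoprotein, had 535, 654, 584 and 738 CPM in the muscle squares of the parts, against 103, 133, 95.5 and 98.4 CPM, a log2 ratio of 2.6. Laminin beta 2 (Lamb2), the laminin chain of muscle basement membranes, stood at 2.26 and laminin beta 1 (Lamb1) at 0.54. Collagen IV chains Col4a1 and Col4a2 stood at 1.67 and 1.87, nidogen 1 (Nid1) at 1.91, emilin 1 (Emilin1) at 2.42 and elastin (Eln) at 1.35. Of the BMP, Wnt and hedgehog genes, 18 of 32 were at least 2-fold higher and 0 lower (median 1.28). Grem1, a secreted BMP inhibitor that supports crypt stem cells, had 119, 144, 133 and 200.4 CPM, against 20.7, 30.1, 24.1 and 22.3 CPM, a log2 ratio of 2.68 (2.56 to 2.80). The BMP inhibitors Nog (noggin) and Chrd (chordin) stood at 2.12 and 1.97, and the Wnt agonists Rspo1, Rspo2 and Rspo3 at 3.04, 3.20 and 2.56. The Wnt antagonists Dkk2 and Sfrp1 stood at 2.84 and 2.10. The hedgehog receptors Ptch1 and Smo stood at 1.33 and 1.89, whereas the epithelial ligand Ihh stood at −0.63.

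Most markers of cells that lie within or against the muscle were higher there too, and their part in the values above was not tested. Pacemaker cells (interstitial cells of Cajal) were represented by 6 of 7 list genes at least 2-fold higher, a median of 2.52 and a sum of 269 CPM in the muscle squares and 94.4 CPM in the remaining squares. Ano1 had 34.0, 27.1, 17.3 and 24.7 CPM in the muscle squares of the parts, against 3.88, 4.22, 4.18 and 3.80 CPM, and the factor Etv1 29.7, 50.3, 35.8 and 42.3 CPM, against 7.86, 8.65, 6.45 and 6.69 CPM. Kit, the receptor that defines these cells, stood at 0.73 (102 against 61.7 CPM). Of enteric neuron genes, 28 of 30 were at least 2-fold higher (median 1.79, sum 904 CPM in the muscle squares and 286 CPM in the remaining squares). They included the synaptic protein Snap25 at 2.12, the neuropeptide Vip at 1.80 (105 against 30.0 CPM) and the nitric oxide synthase Nos1 at 1.71. Of glial genes 7 of 13 were at least 2-fold higher (median 1.26), led among those with 20 or more counts by the factor Sox10 at 2.33. The glial sum did not follow, at 264 CPM in the muscle squares and 288 CPM in the remaining squares, and the receptor gene Erbb3, its most abundant member, had 110.1 against 200.3 CPM (−0.86). Of mesothelial genes 11 of 13 were at least 2-fold higher (median 2.5), with the protease inhibitor Slpi at 119, 39.6, 120.0 and 86.8 CPM, against 8.88, 11.3, 9.45 and 10.5 CPM, mesothelin (Msln) at 2.69 and uroplakin 3b (Upk3b) at 2.62. Of the genes of PDGFRA cells and fibroblasts 21 of 24 were at least 2-fold higher (median 1.69), with the sum at 4463 CPM in the muscle squares and 1668 CPM in the remaining squares. Collagen I and III chains Col1a1, Col1a2 and Col3a1 stood at 1.48, 1.60 and 1.88, Pdgfra at 1.44 and the potassium channel Kcnn3 of PDGFRA cells at 2.38.

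Vessel genes gave different values by list. The pericyte and vascular muscle list had 9 of 14 genes at least 2-fold higher (median 1.33), and Rgs5, a regulator of G protein signals used as a marker of pericytes, held most of its sum at 909, 1182, 1022 and 1311 CPM in the muscle squares of the parts, against 169, 186, 156 and 157 CPM. The defining pericyte gene Pdgfrb stood at only 0.58 (22.6 against 15.1 CPM) and Notch3 at 0.93. Blood endothelium had 5 of 19 genes at least 2-fold higher (median 0.55, sum 955 CPM in the muscle squares and 874 CPM in the remaining squares), with Pecam1 at 0.78, Cdh5 at 0.79 and Plvap at 0.05. Of the fat genes 0 of 14 were 2-fold higher, with a median of −0.36 and the adipokine Adipoq at 49.8 against 64.6 CPM. Macrophage genes had 6 of 20 higher (median 0.87), among them Cd163 at 1.80, Pf4 at 1.71 and Mrc1 at 1.23, genes of tissue-resident macrophages. Genes of T and NK cells had 1 of 16 higher and 7 lower (median −0.95), with Cd3g at 3.73 against 10.8 CPM. Lymphatic endothelium had 2 of 8 genes 2-fold higher (median 0.73), B and plasma cells 1 of 12 (−0.13), neutrophils 1 of 5 (0.49), mast cells 0 of 2 (0.08) and erythrocytes 0 of 4 (0.53).

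Enterocyte genes were lower in the muscle squares and Paneth cell genes higher. Of the enterocyte genes, 0 of 23 were at least 2-fold higher and 12 at least 2-fold lower, with a median of −1.09 (quartiles −1.23 to −0.93) and a sum of 19902 CPM in the muscle squares and 42398 CPM in the remaining squares. Apoa4, an apolipoprotein of fat absorption, had 1660.4, 1545, 2275 and 2023 CPM in the muscle squares of the parts, against 4286, 4048, 7634 and 8630.1 CPM. Fabp1, a fatty acid carrier, stood at −0.69 and sucrase-isomaltase (Sis) at −0.61. Goblet cell genes had a median of −0.17, with the mucin Muc2 at −0.67. Paneth cell genes ran the other way, with 7 of 18 at least 2-fold higher, a median of 0.90 (0.25 against remaining squares at or below their median enterocyte share) and a sum of 12441 CPM in the muscle squares and 8049 CPM in the remaining squares. Their lysozyme Lyz1 had 802 against 408 CPM, and the defensins are near-identical copies among which reads can be exchanged. Of the stem cell and proliferation genes, 1 of 24 was at least 2-fold higher and 0 lower (median 0.12), with a sum of 2047 CPM in the muscle squares and 1417 CPM in the remaining squares. The higher one was Smoc2, a matrix protein that stroma also makes, at 2.13 (271 against 62.2 CPM). The crypt gene Olfm4 stood at 0.71 (516 against 315 CPM) and the stem cell factor Ascl2 at 0.59, with the stem cell receptor Lgr5 and the proliferation marker Mki67 at 0.04 each. Enteroendocrine genes had 1 of 14 2-fold higher and 2 lower (median −0.35), and tuft cell genes 1 of 8 higher (median 0.47).

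The 15 highest ratios among genes with 200 or more counts held 3 scoring genes, Actg2, Myh11 and Des. The others were Htr2b, Chrm2, Galr2, Bves, Hspb1 and Kcnj8, described above, the mesothelial genes Slpi and Rspo1, and Rbm24, Ctxn3, Optc and Col8a2. Rbm24, an RNA-binding protein that directs splicing in muscle, had 38.2, 63.3, 61.5 and 60.0 CPM in the muscle squares of the parts, against 5.87, 7.63, 6.66 and 6.08 CPM, a log2 ratio of 3.22 (3.01 to 3.42). Optc, the small leucine-rich proteoglycan opticin, had 63.7, 69.0, 78.8 and 72.7 CPM, against 9.61, 8.45, 7.80 and 7.73 CPM, a log2 ratio of 3.13. Both were high in every part. Ctxn3, cortexin 3, had 12 to 29.7 CPM over the parts of the muscle and 1.91 to 2.54 CPM over the others, and Col8a2, a collagen VIII chain, 19.1 to 39.5 CPM and 3.25 to 4.08 CPM. The 15 lowest included Unc13d, a gene of granule release in blood cells, with 0.785 against 3.08 CPM. Mx2, an interferon-induced GTPase, had 2 counts in the muscle squares (0.393 against 2.36 CPM). Among the more abundant were Apoa4, the nucleoside transporter Slc28a2 (101 against 331 CPM), the phosphate transporter Slc34a2 (27.9 against 90.4 CPM), enteropeptidase (Tmprss15, 17.9 against 62.6 CPM), Btnl1, a butyrophilin-like protein of enterocytes (4.71 against 15.5 CPM), and Usp18, a protease of the interferon response (5.5 against 18.8 CPM).

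Genes of the injury response were not shifted together in the muscle squares. Of the p53 targets 1 of 25 were at least 2-fold higher and 1 lower (median 0.09), the higher being Phlda3 at 1.11 and the lower the apoptosis gene Pmaip1 at −1.13 (46.1 against 101 CPM), while Cdkn1a, the cell cycle inhibitor p21, stood at −0.55. Of the immediate early and heat shock genes 5 of 24 were higher and 1 lower (median 0.39), with Hspa1a at 2.05, the matrix regulator Ctgf at 1.80 and Fos at −0.72. Of the inflammatory mediators 6 of 19 were higher (median 0.49), with a sum of 348 CPM in the muscle squares and 256 CPM in the remaining squares. Interferon response genes split, with 5 of 26 higher and 5 lower (median −0.43). The membrane protein Ifitm3 stood at 2.10 (163 against 37.9 CPM), whereas the ubiquitin-like Isg15 stood at −1.32 (34.1 against 85.5 CPM). Of the BAF complex subunits 4 of 28 were higher (median 0.29), a share near the 2542 of 16566 among all genes with 50 or more counts. Dpf2 stood at 0.29 (0.05 to 0.52), with 59.5, 26.0, 31.1 and 33.9 CPM in the muscle squares of the parts, against 23.8, 26.4, 25.3 and 26.8 CPM, and its highest value came from the part with 24 muscle squares. The ATPase Smarca2 stood at 1.30 and its alternative Smarca4 at 0.19. The other higher subunits were Actl6b at 1.44, Bcl7a at 1.12 and Smarcd3, a BAF subunit known from muscle, at 1.09. Under 11 alternatives of the processing, Actl6b and Smarca2 stayed 2-fold higher in 10, and Bcl7a and Smarcd3 in 7.

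The surroundings of the muscle showed in the levels by distance. Squares were grouped by distance to the nearest muscle square, in units of a square's side, as 0 (the 415 muscle squares), 1 (1011 squares), 2 (902), 3 (914), 4 to 5 (1836), 6 to 8 (1486) and 9 or more (1721). The scoring genes summed to 8452, 2896, 1341, 849, 709.9, 886 and 805 CPM from distance 0 outward. Enteric neuron genes summed to 904, 721, 313, 227, 193, 225 and 231 CPM. Fibroblast genes summed to 4463, 3378, 2112, 1521, 1271, 1436 and 1298 CPM. Blood endothelium and fat genes had their highest pooled sums beside the muscle and not in it, with sums of 955, 1385, 1195, 991, 769.7, 741 and 648 CPM and 1389, 3596, 3249, 2458, 1552, 1267 and 923 CPM. By part, the fat sum was highest at distance 6 to 8 in 1 part and at distance 2 in another, and the endothelial sum at distance 2 in 1 part. Both lists hold Fabp4, a fatty acid carrier of fat and capillaries. Without it, a sum chosen after the values were seen, the other 18 endothelial genes stood at 668, 711, 582, 533, 483, 495 and 477 CPM, nearly level from distance 0 to 1. Paneth cell genes had their highest sum at distance 1, at 12441, 14553, 8700.0, 7389.7, 6692, 6690.1 and 7349 CPM. Enterocyte genes had 19902, 24542, 31116, 39253, 48089, 46251 and 48307 CPM, the lowest value being in the muscle squares. The pacemaker cell list had 269, 144, 101, 84.0, 80.9, 94.1 and 85.7 CPM and the pericyte list 1599, 651, 323, 216, 184, 227 and 213 CPM, both highest in the muscle squares.

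**Figure D4:**
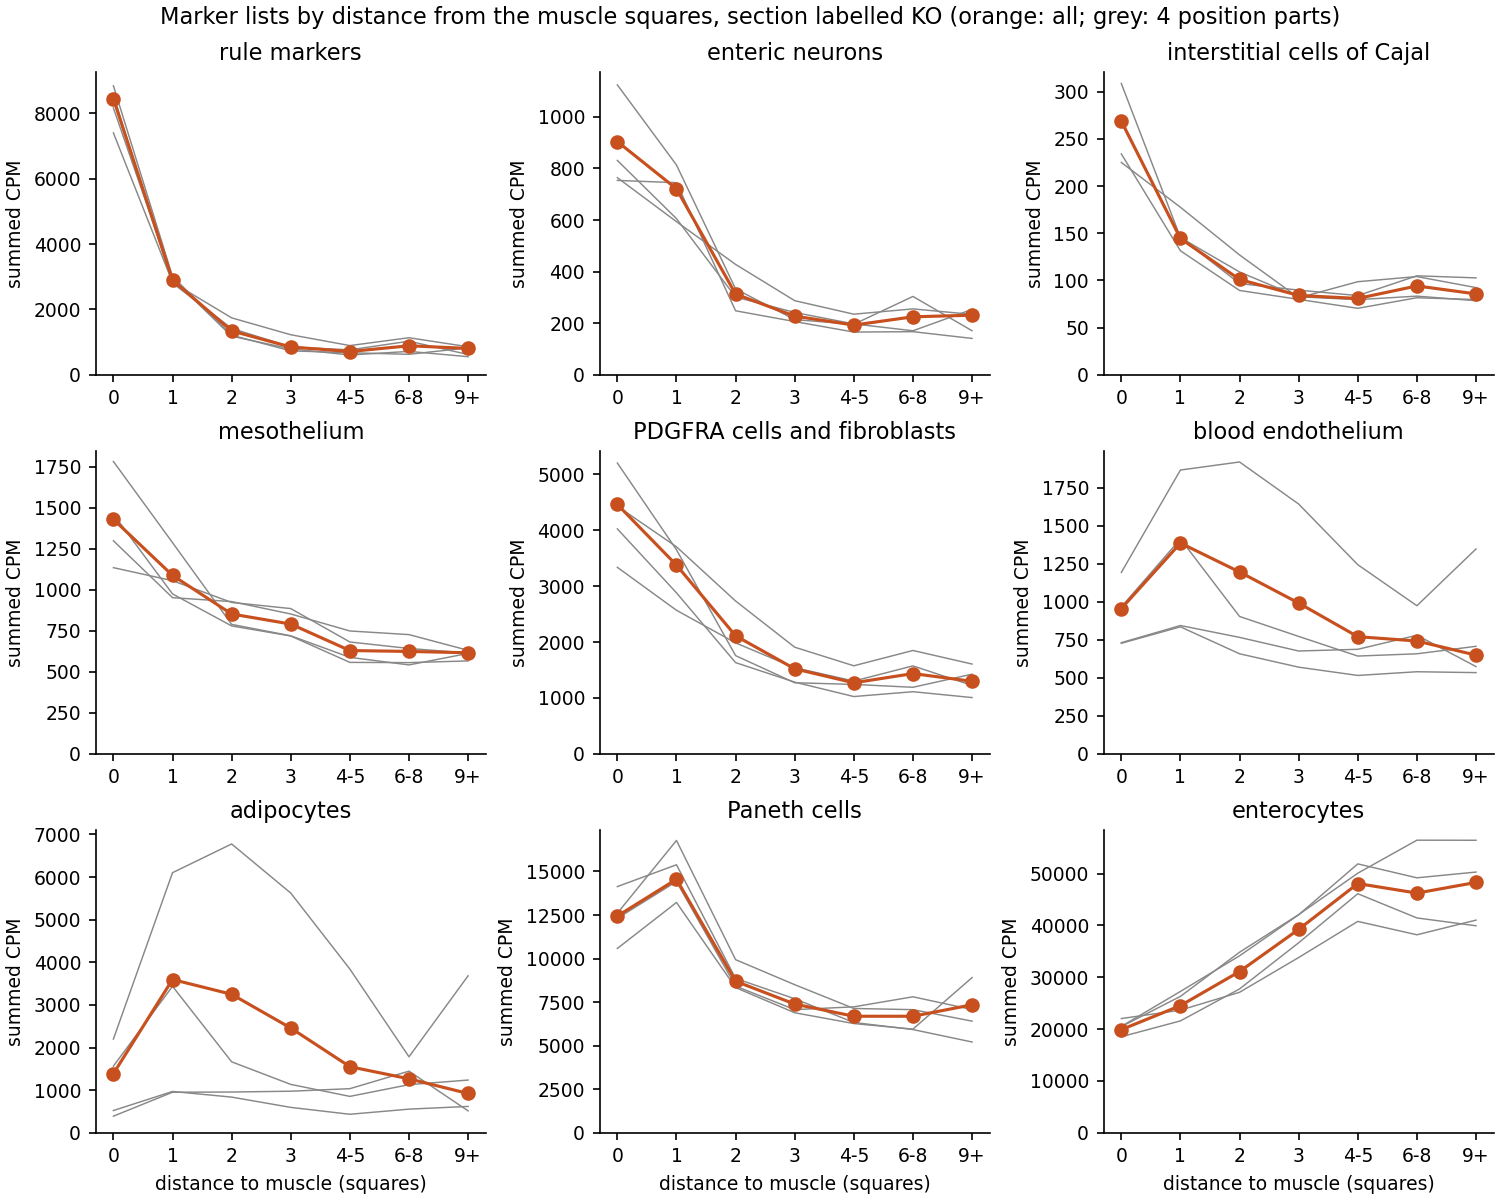
Summed level in CPM of 9 gene lists by distance from the nearest muscle square of the section labelled KO, in sides of a square, with the pooled value in orange and each of the 4 parts in grey. Scoring genes stand at 8452 CPM in the muscle squares and 2896 CPM at distance 1, whereas the pooled endothelial, fat and Paneth cell sums are highest at distance 1, in the case of endothelial and fat genes not in every part.

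Within the 415 muscle squares, the lists differed in how closely they tracked the score. These rank correlations describe squares of a single section that share depth and neighbours, and carry no p. The contractile list had a Spearman correlation with the score of 0.72, thin filament genes 0.56, the pericyte list 0.49 and matrix genes 0.35. Neuron genes stood at −0.00, mesothelial genes at 0.05, fibroblast genes at 0.17 and enterocyte genes at −0.30. Fibroblast and mesothelial genes were correlated with each other at 0.54.

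Muscle squares at different depths of the section were compared by sorting them by distance from its middle into 138 inner, 138 middle and 139 outer squares, with pooled scores of 0.791%, 0.924% and 0.822%. Of 774 genes that were at least 2-fold higher in the muscle squares and had 100 or more counts there, 28 were at least 2-fold higher in the inner than in the outer squares and 8 at least 2-fold lower. Among all 7370 genes with 100 or more counts in the muscle squares, 67 (0.909%) were higher and 63 (0.855%) lower, so the 8 lower genes stand near the background. Igfbp2, a binding protein of insulin-like growth factors, had 32.2, 26.6 and 5.41 CPM in inner, middle and outer muscle squares, a log2 ratio of 2.58, and the remaining squares showed the same gradient at 2.80. Rhoj, a small GTPase, had 109, 89.2 and 41.4 CPM. Grem1 had 208, 164 and 90.1 CPM, a log2 ratio of 1.21 in the muscle squares against 0.68 in the remaining squares. The neuronal genes Uchl1 and Prph stood at 1.24 and 1.23. Igfbp7 ran the other way, with 151, 144 and 377 CPM, a ratio of −1.32 in the muscle squares and of −0.66 in the remaining squares. The matrix protein gene Ltbp4 stood at −1.10. Among the scoring genes Tagln had 1485, 1414 and 898 CPM (0.73, and 0.69 in the remaining squares) and Myh11 849, 1144 and 1294 CPM (−0.61, and −0.15 in the remaining squares), with Acta2 at −0.03, values that describe the selection.

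The same rule gave 246 muscle squares of 4917 in the WT-labelled section, with a lower score. Their pooled score was 0.334% and that of the KO-labelled muscle squares 0.845%, and 11 of the 246 reached the score of the lowest KO-labelled member. They also lay elsewhere, 47 of them in a piece of tissue apart from the main piece, and the 4 parts held 27, 10, 126 and 83. Of 11657 genes tested there, 527 (4.52%) were at least 2-fold higher in the muscle than in the remaining squares and 1073 (9.20%) at least 2-fold lower. Of the 11234 genes tested in both sections, 1190 (10.6%) were 2-fold higher in the KO-labelled muscle squares and 491 (4.37%) in the WT-labelled ones. The 396 genes higher in both make up 33.3% of the KO-labelled list, against 4.37% of all 11234 higher in the WT-labelled section. They make up 80.7% of the WT-labelled list, against 10.6% of all 11234 higher in the KO-labelled section. Between the muscle squares of the sections, 1410 of 5688 genes (24.8%) were at least 2-fold higher in the KO-labelled section and 335 (5.89%) at least 2-fold lower, with a median log2 ratio of 0.40. With scaling by the median of ratios, the counts became 884 higher and 589 lower. Place in the section and genotype label cannot be told apart in these values, and the ratios have no replicate check.

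By list, the KO-labelled muscle squares stood at a median log2 ratio over the WT-labelled ones of 0.76 for the contractile apparatus, 0.78 for the dystrophin complex, 0.85 for caveolae and 1.18 for oxidative phosphorylation, to be set beside 0.40 for all genes. Intermediate filament and small heat shock genes stood at −0.40, integrins at −0.25 and matrix genes at −0.34. These lists kept their sign under every alternative tried. With the score matched within 0.05 percentage points, however, caveolae stood at 0.31 and the dystrophin complex at 0.30, below the 0.38 of all genes under that match. Thin filament genes stood at 0.51, and at −0.11 under the same match. The calcium, channel, transcription factor and BMP lists (0.39, 0.21, 0.12 and 0.23) took either sign. Inflammatory mediators stood at −4.26, with 17 of 20 at least 2-fold lower in the KO-labelled muscle squares. Among all genes with 50 or more counts it was 794 of 11142. The mediators' sum also differed in the remaining squares, at 256 CPM in the KO-labelled and 2168 CPM in the WT-labelled section, so the difference was not particular to the muscle squares. Immediate early and heat shock genes stood at −1.43. Enterocyte genes differed by more than any muscle list, at 6.79, so that the epithelium within the squares also differed between the sections, and its part in the other ratios was not tested. Dpf2 stood at 0.59 (0.08 to 1.13).

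To keep to genes of the muscle squares, the 396 genes at least 2-fold higher there in both sections were compared between the sections, a choice made after the values were seen. Of the 242 with 200 or more counts over both sets of muscle squares, 51 (21.1%) were at least 2-fold higher in the KO-labelled squares. At least 2-fold lower were 48 (19.8%), and the median log2 ratio was 0.02 (quartiles −0.63 to 0.82). Among all 5688 genes with that many counts, 1410 (24.8%) were higher and 335 (5.89%) lower. The higher share of the 242 thus did not exceed that of all genes. In 48 of the 51 higher and 35 of the 48 lower genes, all 4 parts of the KO-labelled section lay beyond all 4 of the WT-labelled section. Among all genes the same held for 1300 of the 1410 higher and 300 of the 335 lower, so this separation was not particular to the 242. The remaining squares of the sections differed in the same direction for 50 of the 51 and for all 48. Without the separate piece of the WT-labelled section the counts were 52 and 46.

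Among the genes higher in the KO-labelled muscle squares were proteins of the contractile cytoskeleton and membrane. Synm had 213 CPM in the KO-labelled and 27.6 CPM in the WT-labelled muscle squares, a log2 ratio of 2.95 (2.55 to 3.37), with 168 to 260.4 CPM over the parts of the KO-labelled section and 17.6 to 31.5 CPM over those of the WT-labelled section. Smtn had 325 CPM in the KO-labelled and 66.2 CPM in the WT-labelled muscle squares, a ratio of 2.30, and 0.82 in the remaining squares. Ppp1r12b had 539 CPM in the KO-labelled and 109 CPM in the WT-labelled muscle squares, a ratio of 2.30, and 1.09 in the remaining squares. Cavin2, a caveolar coat protein, stood at 2.54, the kinase gene Dmpk at 2.16, Atp2b4 at 2.36, and the heparin-binding growth factor Ptn at 2.70. The scoring genes, which follow the difference in score by construction, ran from 0.84 for Cnn1 to 1.89 for Tagln.

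Among the genes lower in the KO-labelled muscle squares were acute phase, chemokine and matrix genes. Serpina3n, an acute phase protease inhibitor, had 8.05 CPM in the KO-labelled and 888 CPM in the WT-labelled muscle squares, a log2 ratio of −6.79 (−7.27 to −6.34), with 0 to 9.17 CPM over the parts of the KO-labelled section and 526 to 949 CPM over those of the WT-labelled section. Ccl2, a chemokine that attracts monocytes, had 6.08 CPM in the KO-labelled and 241 CPM in the WT-labelled muscle squares, a ratio of −5.31 in the muscle and −5.10 in the remaining squares. Thbs1, the matrix protein thrombospondin 1, had 49.1 CPM in the KO-labelled and 1543 CPM in the WT-labelled muscle squares, ratios of −4.98 and −5.13. The parts of the sections did not overlap for Serpina3n, and for Ccl2 and Thbs1 the remaining squares differed by about as much as the muscle squares. Tenascin C (Tnc) stood at −3.16, the fibronectin receptor subunit Itga5 at −3.02, the oncostatin M receptor Osmr at −2.56 and the transcription factor Cebpd at −3.57. Genes of a channel subunit, a small heat shock protein and secreted signals, not all of them of muscle, were among them too. Kcnj8 had 41.0 CPM in the KO-labelled and 402 CPM in the WT-labelled muscle squares, a ratio of −3.29, while its partner subunit Abcc9 stood at −0.59. The small heat shock gene Hspb1 stood at −1.38, Grem1 at −1.45 and the neuropeptide Vip at −2.01 (105 CPM in the KO-labelled and 423 CPM in the WT-labelled muscle squares).

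**Figure D5:**
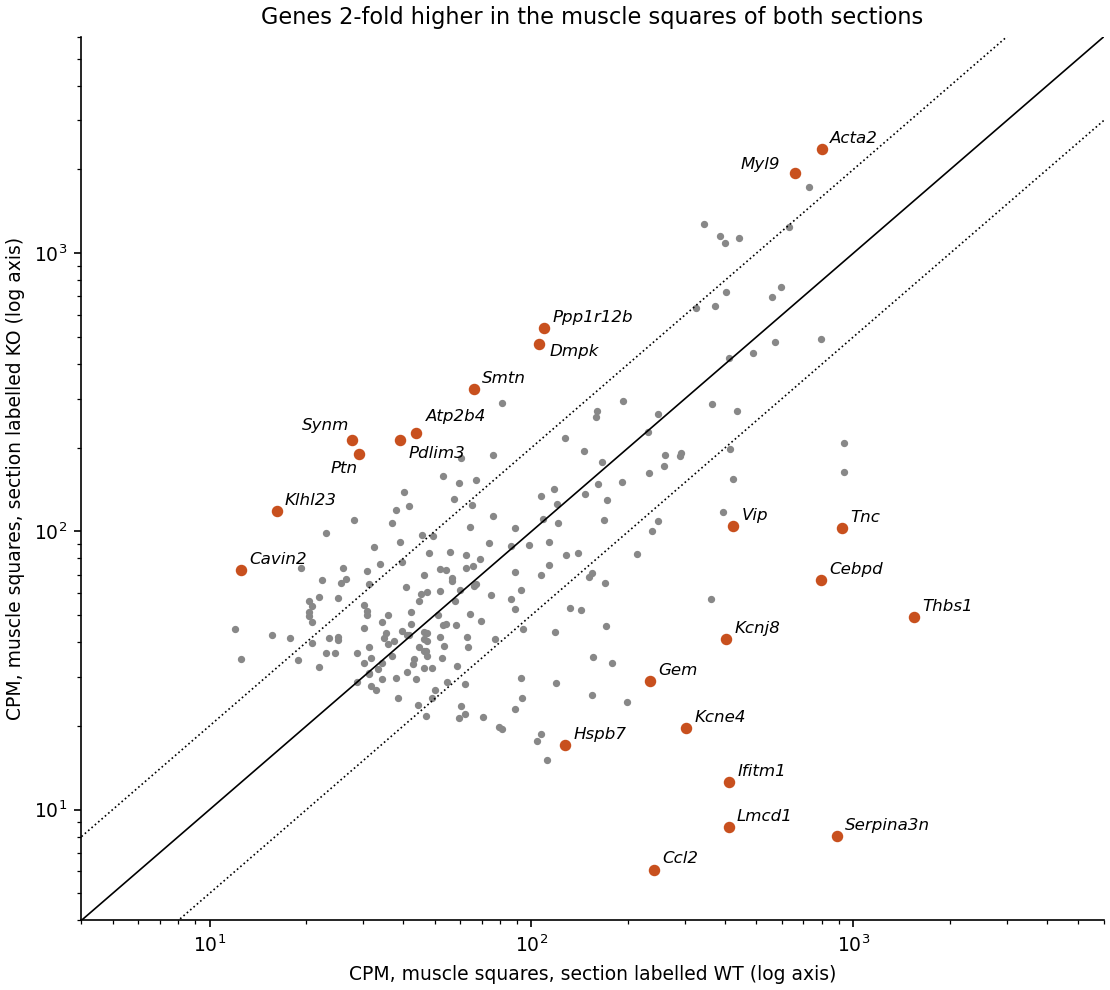
Level in CPM of the 242 genes that were at least 2-fold higher in the muscle squares of both sections, in the KO-labelled (vertical) and the WT-labelled muscle squares (horizontal), both on log axes. The solid line marks equal levels and the dotted lines 2-fold, beyond which 51 genes lie on the KO-labelled side, among them Synm, and 48 on the WT-labelled side, among them Serpina3n and Thbs1.

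Matching the muscle squares of the sections by score moved these values. In each section 246 squares were matched within 0.05 percentage points of the score. The mean of the squares' own scores was then 0.337% in the KO-labelled and 0.338% in the WT-labelled squares. Under this match the median of the 242 genes was −0.72, with 10 at least 2-fold higher and 96 lower. Synm then stood at 1.55, Ppp1r12b at 1.14 and Smtn at 1.06. Myl9 stood at 0.35 after 1.56 unmatched, and Mylk at −0.05 after 1.25. Kcnj8 stood at −4.50, further from 0 than without matching. Since 11 of the 246 WT-labelled squares reach the score of the lowest of the 415, the matched squares are mostly other squares of the KO-labelled section.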

How the data were processed

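Spatial transcriptomes of 2 intestinal sections were used, 1 labelled KO and 1 labelled WT. Per the labels' protocols, fresh frozen tissue was cut at 10 µm, placed on barcoded arrays and sequenced as paired reads, and barcodes under tissue were kept after the spot image was aligned with the bright-field image. Mapping used GRCm38, per the submitters' processing notes. The sources used here do not say which programs aligned and counted the reads or whether molecular identifiers were collapsed. The files deposited by the authors hold counts, 1 whole number for each gene and barcode, with no normalisation. Features with the same symbol, 94 in excess, were summed, and gene positions came from RefSeq.

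Counts were summed over squares of 10 position units, squares with 1000 or more counts were kept, and the top 5% by score were taken in each section. CPM are pooled counts of a gene per 1000000 counts of the same squares. Log2 ratios set muscle over remaining squares, or KO-labelled over WT-labelled muscle squares, with exact conditional binomial 95% intervals that cover counting error only. Called means at least 2-fold among genes with 200 or more counts, list medians use members with 50 or more counts, and 0 counts allow up to 3 counts. Each section was split by position into 4 parts. There are no replicates, so no test was made and no p-value is given. The members and the gene lists were chosen with earlier results of these data known. Genes were named by rule, as the 7 scoring genes, the most abundant and the most different members of each list, the BAF subunits and the 15 highest and 15 lowest ratios with 1 sign in all 4 parts, leaving out predicted, ribosomal protein, immunoglobulin, T cell receptor and haemoglobin genes. Any other gene was chosen after its values were seen. Some list members are not reported here by name. Alternatives covered the square, the count minimum, the share taken, the scaling, the gene minimum, the remaining squares and the match of the sections. The scripts ran on Python 3.11.15 with numpy 2.4.6, scipy 1.17.1, pandas 2.3.3 and matplotlib 3.10.9, and were tested on simulated counts.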

Additional observations from a re-analysis of the deposited data

Results flagged for a closer look

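For 3 lists flagged here, the median log2 ratio of muscle over remaining squares had opposite signs in the 2 sections. Every one of the 4 parts of each section lay on its own side. Ribosomal protein genes stood at 0.39 in the KO-labelled section and −0.45 in the WT-labelled section. Blood endothelium genes stood at 0.55 in the KO-labelled section and −0.53 in the WT-labelled section. Stem cell and proliferation genes stood at 0.12 in the KO-labelled section and −0.92 in the WT-labelled section. The direction in the KO-labelled section turned for 2 of them. Against remaining squares at or below their median enterocyte share, ribosomal protein genes stood at −0.0013 and stem cell and proliferation genes at −0.29, and the second list stood at −0.06 with scaling by the median of ratios. Blood endothelium genes kept their sign, at 0.06 or more. Opposite signs were not confined to these 3 lists. Among others, cardiac muscle stood at 1.59 in the KO-labelled and −0.99 in the WT-labelled section. BAF complex subunits stood at 0.29 and −0.17, and p53 targets at 0.09 and −0.30, in the same order. Each genotype label has 1 section, so these differences were not tested, and the medians of all tested genes, 0.18 in the KO-labelled section and −0.27 in the WT-labelled section, differed in sign too.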

How the results depend on the processing

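No paired analysis was possible because each genotype label has 1 section and no test was made. The reported counts are 1570 genes at least 2-fold higher and 301 lower in the 415 muscle squares, and 1410 higher and 335 lower in KO-labelled than in WT-labelled muscle squares. The squares numbered 635 with a side of 8 position units and 110 with a side of 20. Taking the highest 2.5% gave 208 squares, 493 lower genes, and 872 higher and 210 lower between sections. Taking the highest 10% gave 829 squares and 580 lower between sections. Scaling by the median of ratios gave 570 lower genes, and 884 higher and 589 lower between sections. A gene minimum of 50 counts gave 2542 higher and 584 lower, and 2595 and 794 between sections. A minimum of 1000 counts gave 509 and 191, and 319 and 83 between sections, since fewer genes were tested. Remaining squares at or below their median enterocyte share gave 825 higher and 118 lower. The other alternatives kept these counts within 1.5 times. They include the squares matched on score in steps of 0.05 percentage points and the WT-labelled squares without the separate piece of tissue, both chosen after seeing the data. Under that match the scoring genes' median between sections turned to −0.16, against 1.36 reported, as matching on their share entails. Of 293 named genes 193 were at least 2-fold apart, and 191 of these kept their sign under all 11 alternatives of the muscle against the remaining squares, the exceptions being Actc1 and Tnni2, while 129 of the 193 stayed at least 2-fold apart under all of them. Of the defensins Defa21 and Defa5 stayed 2-fold higher under 5 of the 11, Defa3 under 6 and Defa26 under 9. A list median between sections has no value where too few members had 50 or more counts. It also has none where it fell on members at 0 counts in 1 section. Of 14 settings, the reported one included, fat and skeletal muscle genes had a value in 10 each and tuft cell genes in 12. The receptor, neutrophil, enterocyte and erythrocyte lists had a value in 13 each. Depth limits low transcripts in the muscle squares, where 0 counts allow up to 0.589 CPM in the KO-labelled and 1.56 CPM in the WT-labelled section, and the part with 24 muscle squares.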

Other observations

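Hox genes, the transcription factors that give mesenchyme its position along the body axis, were listed after their values were seen. Of those measured, 16 of 18 were at least 2-fold higher in the KO-labelled muscle squares than in the remaining squares and 1 at least 2-fold lower, with a median log2 ratio of 1.95 and a sum of 198 CPM in the muscle squares and 51.1 CPM in the remaining squares. Hoxb5 had 8.49, 37.9, 32.3 and 38.1 CPM in the muscle squares of the 4 parts, against 7.03, 10.5, 6.35 and 6.49 CPM in the remaining squares, a log2 ratio of 2.21 (1.96 to 2.45). Hoxa5 stood at 2.12, Hoxb6 at 2.06 and Hoxb8 at 2.57. Hoxa10 was the lower member, with 3 counts in the muscle squares (0.589 against 2.02 CPM). Hoxa13 and Hoxd13, of the hindmost group, were at 0 counts in both sets of squares.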
